A study of Mus musculus with 8 samples.

Results

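The genes described here encode the brake that dopamine sets on its own neurons: the D2 receptor (Drd2), the 4 subunits of the G protein-gated inward rectifier potassium (GIRK) channels (Kcnj3, Kcnj5, Kcnj6 and Kcnj9) and the 4 alpha subunits of the widely expressed Gi/o proteins (Gnao1, Gnai1, Gnai2 and Gnai3). They were taken by symbol from the deposited count table, which lists 56691 genes. All 9 were found, and all 9 were among the 19912 genes that passed the filter on low counts. The table holds messenger RNA bound to ribosomes in the ventral tegmental area (VTA) of male mice, the midbrain region whose dopamine neurons project to the striatum and cortex. Every animal received AAV-TH-Cre, a virus with Cre recombinase under the promoter of tyrosine hydroxylase, together with AAV-Flex-NBL10, a Cre-dependent virus for an HA-tagged ribosomal protein through which ribosomes were pulled out. In Ogt flox+/Y mice (Ogt knockdown, 4 libraries, replicates 2, 3, 4 and 5) Cre acts on the X-linked Ogt gene, which encodes the enzyme that attaches O-GlcNAc to proteins. Ogt flox-/Y mice with the same viruses were the controls (4 libraries, replicates 3, 4, 5 and 6). The labels give no age and no other treatment. No label ties a replicate to an animal of its own. The p-values therefore speak only of how far these libraries scatter, and that scatter could be technical.

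In midbrain dopamine neurons the D2 receptor sits on the cell body, dendrites and terminals and senses dopamine released by the neuron itself or its neighbours. It activates Gi/o proteins: the alpha subunit inhibits adenylyl cyclase, and the released beta-gamma pair opens GIRK channels, so that potassium leaves the cell and firing slows. GIRK channels are tetramers. Kcnj6 (GIRK2) is known as the main subunit in dopamine neurons and can form channels alone, Kcnj9 (GIRK3) joins it in the VTA, Kcnj3 (GIRK1) is best known from other neurons and from the heart, and Kcnj5 (GIRK4) is the partner of Kcnj3 in the atrium.

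The libraries held 49802305 to 147747191 counted reads. Ogt itself was lower in all 4 knockdown libraries than in any control, at 126 ± 22.8 CPM (read counts scaled to library size) in controls and 49.8 ± 17.0 in knockdown (SD, n = 4 each; 2.53-fold lower, adjusted p = 0.00243, edgeR's quasi-likelihood test). The labelled cell type was checked by markers. Th, Ddc, Slc6a3 and Slc18a2, the genes of dopamine synthesis, reuptake and vesicle loading, were detected in every library, but so were astrocyte, oligodendrocyte, microglia and serotonin neuron markers, none of them at 0 in any library. Control replicate 3 stood apart: its 8 endothelial markers summed to 783.1 CPM against 9.44 to 16.3 CPM in the other controls and 23.6 to 37.6 CPM in knockdown, and its 8 pericyte markers to 608.5 CPM against 10.5 to 16.6 and 26.4 to 40.1 CPM. Knockdown replicate 3 differed most within its group. Its counts gave a chi-square per degree of freedom of 192.1 to 243.3 against the other knockdown libraries, which gave 43.5 to 117 among themselves. In CPM it was the lowest knockdown library for Drd2, Kcnj3, Kcnj6 and Gnao1 and the highest for Gnai1. Where a result on the 9 genes rests on control replicate 3, its values without that library stand beside it. For the lists of other genes such values are given only in part.

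Between genes, levels can be compared only per length, as TPM (counts per gene length, scaled to the same sum in each library). The length is that of all annotated exons of a gene, such as 11053 bases for Gnao1 and 3779 for Gnai2. Which transcripts were present was not tested, and the order and family shares given here depend on these lengths. In the controls Gnai2 stood first at 270.8 ± 19.4 TPM (SD, n = 4, as for all TPM means here). Gnai1 (139.1 ± 20.6 TPM), Gnao1 (138.3 ± 29.7 TPM) and Drd2 (137.7 ± 55.9 TPM) followed with overlapping ranges. The place of Drd2 rests on control replicate 3 (221.5 TPM): in the other 3 controls it was at 107.6 to 111.9 TPM, below every Gnai1 (134.7 to 162.4 TPM) and Gnao1 (145.9 to 157.7 TPM) value of these libraries. Kcnj9 came next at 81.3 ± 9.65 TPM, below every Drd2 value. Kcnj3 (33.6 ± 4.79 TPM) and Gnai3 (27.7 ± 2.39 TPM) overlapped, although Kcnj3 was the higher of the pair in each of the 4 libraries. Kcnj5 at 5.44 ± 1.24 TPM and Kcnj6 at 1.94 ± 0.65 TPM were the lowest, and they did not overlap. The subunit best known from dopamine neurons was thus the lowest of the 9 in this table.

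The order shifted in the knockdown libraries. Gnai2 stayed first at 368.8 ± 38.9 TPM, apart from Gnai1 at 122.8 ± 12.4 TPM, which overlapped Gnao1 at 106.4 ± 28.4 TPM. Drd2 moved below Kcnj9 (64.9 ± 23.8 against 70.8 ± 15.0 TPM, with overlapping ranges). Gnai3 at 47.8 ± 7.94 TPM overlapped Drd2 and stood above every value of Kcnj3 (24.9 ± 4.60 TPM). Kcnj5 at 3.25 ± 0.46 TPM and Kcnj6 at 2.38 ± 0.94 TPM now overlapped.

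The level of Kcnj6 needs 2 remarks on its gene model. Its 3′ end in RefSeq lies 3656 bases beyond the end in GENCODE M21, which has the same span as the count table; for the other 8 genes the ends differed by 7 bases or fewer. Reads from such a longer end would not be counted for Kcnj6, and whether they exist was not tested. In addition, 380 of its 7633 exon bases overlap Gm41505 on the other strand, and counting did not use strand.

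**Figure D1:**
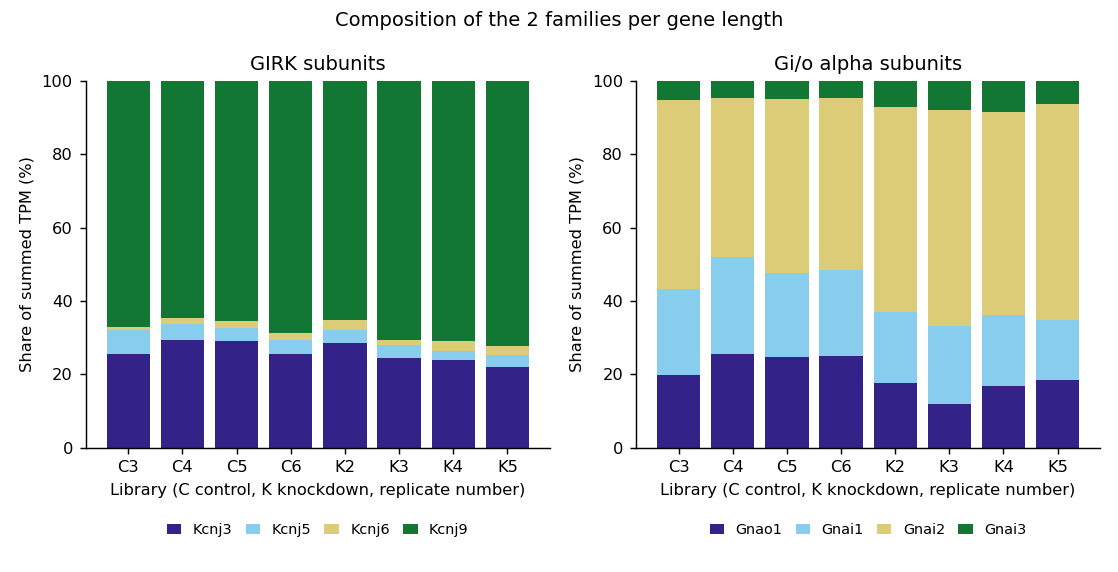
Stacked bars give each subunit's share (%) of the summed TPM of its family in every library, for the 4 GIRK subunits on the left and the 4 Gi/o alpha subunits on the right (C, control; K, knockdown; numbers are replicates). Kcnj9 held most of the GIRK sum in every library, and the share of Gnai2 was between 43.2% and 51.6% in controls and between 55.5% and 58.9% in knockdown.

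Within the GIRK family, Kcnj9 held 66.5 ± 1.78% of the summed TPM in controls and 69.8 ± 3.11% in knockdown (SD, n = 4 each). The share of Kcnj3 was 27.4 ± 2.12% and 24.7 ± 2.68%. Kcnj5 made up 4.50 ± 1.27% and 3.25 ± 0.44%, and Kcnj6 1.57 ± 0.47% and 2.27 ± 0.60%. The ranges of the 2 groups overlapped for Kcnj3, Kcnj6 and Kcnj9, and also for Kcnj5 (3.56% to 6.37% against 2.68% to 3.68%; the highest control without replicate 3 was 4.22%). The makeup of the Gi/o alpha family differed more. The plot of shares by library shows Gnai2 and Gnai3 with larger shares in every knockdown library than in any control, and Gnao1 and Gnai1 with smaller ones. Gnai2 went from 47.3 ± 3.40% to 57.2 ± 1.88% and Gnai3 from 4.83 ± 0.19% to 7.42 ± 0.91%, while Gnao1 went from 23.8 ± 2.74% to 16.2 ± 2.84% and Gnai1 from 24.1 ± 1.58% to 19.1 ± 1.89%. Control replicate 3 had the lowest Gnao1 share of the controls, 19.7% against 24.8% to 25.7% in the others. These shares were described and not tested, and shares of 1 sum are not independent of each other.

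The comparison of the groups asks which of these messages differ when Ogt is knocked down. Of the 9 genes, 3 were lower (Drd2, Kcnj3 and Kcnj5), 2 were higher (Gnai2 and Gnai3) and 4 did not pass the threshold (Kcnj6, Kcnj9, Gnao1 and Gnai1; edgeR's quasi-likelihood test, Benjamini-Hochberg adjusted p under 0.05 over all genes tested). Over all 19912 genes, 28.5% were called, 13.4% higher and 15.1% lower, which is the background against which 5 of 9 is read. The median log2 fold change was -0.25 over the 9 genes and 0.00 over all genes. With all libraries, no gene of the receptor and channel group was called higher, and no alpha subunit was called lower. The second part did not hold without control replicate 3. The same 5 genes were the ones whose groups did not overlap in CPM, as was the case for 35.1% of all genes (17.1% higher and 18.0% lower). Without control replicate 3, 6 of the 9 were called (4 lower, the alpha subunit Gnao1 among them, and 2 higher), where 34.9% of all genes were called. Without both libraries numbered 3, 7 were called (5 lower, the alpha subunits Gnao1 and Gnai1 among them, and 2 higher), where 46.8% were called. Without any 1 of control replicates 4, 5 and 6, 3 were called, where 19.4%, 21.1% and 18.8% of all genes were called. In bulk libraries such as these, fewer cells that hold a message and less of the message per cell cannot be told apart. No library is labelled as input to the pull-down, so the share of RNA from untagged cells in each library was not measured either.

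**Figure D2:**
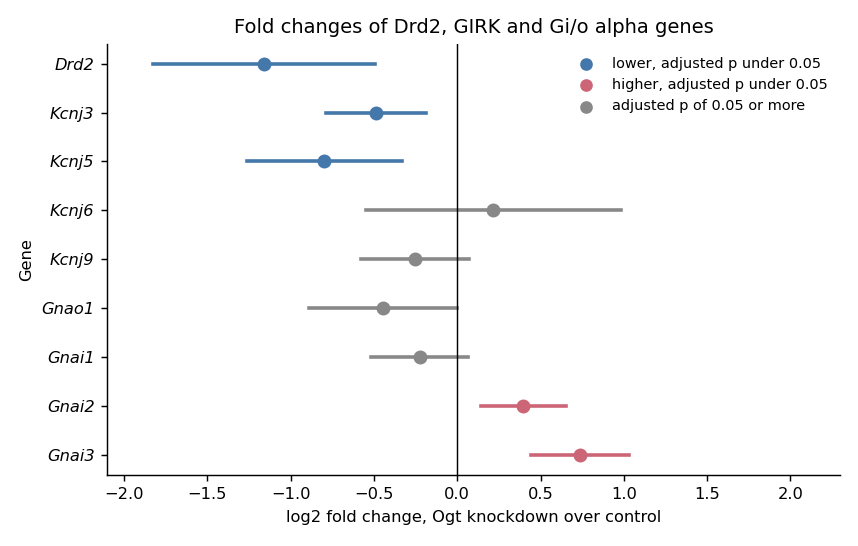
Points give the log2 fold change (Ogt knockdown over control, x axis) of each gene and bars its 95% confidence interval from edgeR's fit, with n = 4 libraries per group. Intervals of Drd2, Kcnj3 and Kcnj5 lie below 0 and those of Gnai2 and Gnai3 above 0, while the other 4 intervals hold 0.

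The starts of the genes with the largest fold change in each direction, Drd2 and Gnai3, are shown as the 250 bases before the transcript start, from RefSeq on GRCm38.p6, 5′ to 3′ on the gene's own strand. The Drd2 window is chr9:49340153-49340402 (+ strand) and the Gnai3 window chr3:108146153-108146402 (- strand). Capitals mark GC boxes (GGGCGG on either strand), the sites to which Sp-family factors are known to bind.
Drd2: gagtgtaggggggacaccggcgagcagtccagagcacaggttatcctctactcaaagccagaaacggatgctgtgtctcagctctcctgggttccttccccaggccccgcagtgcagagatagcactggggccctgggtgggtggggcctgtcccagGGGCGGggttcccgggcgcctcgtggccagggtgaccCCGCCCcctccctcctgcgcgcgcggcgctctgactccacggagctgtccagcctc
Gnai3: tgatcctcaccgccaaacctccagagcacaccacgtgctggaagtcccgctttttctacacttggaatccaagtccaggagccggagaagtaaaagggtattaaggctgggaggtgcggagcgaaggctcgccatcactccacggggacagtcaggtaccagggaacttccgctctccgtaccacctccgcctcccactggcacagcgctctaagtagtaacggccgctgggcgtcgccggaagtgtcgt
The Drd2 window had 68.8% GC and 2 GC boxes, and the Gnai3 window 59.6% GC and none; the median over all promoter windows was 52.4% GC. A GC box occurred in 32.7% of 32851 such windows of all genes. The STAT motif TTCNNNGAA, searched because the study concerns STAT3, occurred in 7.02% of windows and was in neither of the 2 shown. Of the 8 genes with an entry, it was found in Kcnj9 alone, once; Kcnj9 also held a TATAAA box, which 12.4% of windows have. The cAMP response element TGACGTCA (1.55% of windows) and the NBRE motif AAAGGTCA, which Nr4a2 is known to bind (1.34%), were in none of the 9 windows of these genes, of which Kcnj6 has 2. Both strands were searched, and a match of letters is not a binding site. Gnai2 had no entry. Of the Kcnj3 window 250 of 250 bases, and of the Gnao1 window 202 of 250, lie in exons of GENCODE M21 (of any gene, on either strand).

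**Figure D3:**
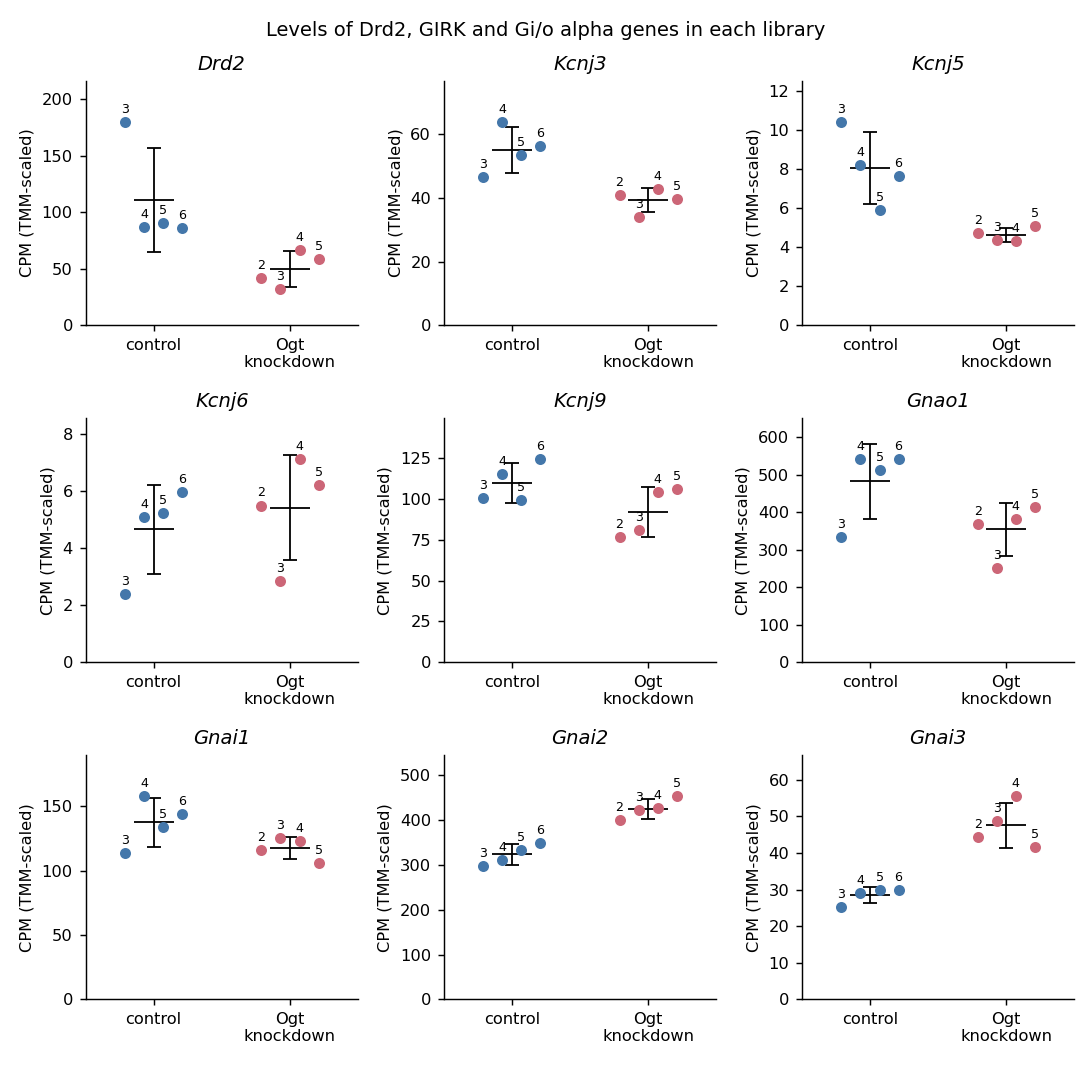
Each panel gives 1 gene: points are the TMM-scaled CPM of single libraries, labelled with the replicate number, and the line and bars are the group mean ± SD (n = 4; each y axis starts at 0 and has its own range). Drd2, Kcnj3 and Kcnj5 lie lower in every knockdown library than in any control, Gnai2 and Gnai3 lie higher, and the groups of the other 4 genes overlap.

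Drd2 (ENSMUSG00000032259.9, chromosome 9, 49251927 to 49319477, GRCm39) encodes the autoreceptor. Its level was 180.3, 86.8, 90.5 and 86.4 CPM in control replicates 3, 4, 5 and 6, and 41.4, 32.1, 66.4 and 58.9 CPM in knockdown replicates 2, 3, 4 and 5. Control replicate 3 was far above the other controls, and the groups did not overlap with or without it. Drd2 was 2.23-fold lower in knockdown (log2 fold change -1.16 ± 0.30, SE; adjusted p = 0.0172). Without control replicate 3 the difference was 1.77-fold (adjusted p = 0.0150), and without both libraries numbered 3 it was 1.59-fold (adjusted p = 0.00291). The call was lost without knockdown replicate 2 (2.13-fold, adjusted p = 0.0505). Of the other dopamine receptors, Drd5, a Gs-coupled receptor of the D1 class, was at 1.62 ± 0.31 CPM in controls and 0.54 ± 0.08 CPM in knockdown, 2.98-fold lower without overlap (adjusted p = 0.00571). Drd1, Drd3 and Drd4 were at 2.79 CPM or less in every library and were not called (log2 fold changes -0.32, -2.19 and -0.26). Drd3 was near the floor, at 0.31 ± 0.17 and 0.07 ± 0.06 CPM, with 0 in knockdown replicate 3. It was called lower without both libraries numbered 3 (adjusted p = 0.0292) and by limma-voom (0.00935). The median over the 5 receptors, Drd2 included, was -1.16, which is the value of Drd2 itself.

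Kcnj3 (ENSMUSG00000026824.12, chromosome 2, 55325982 to 55488157) encodes GIRK1, which cannot reach the membrane without a partner subunit. Control replicates 3, 4, 5 and 6 had 46.7, 64.0, 53.5 and 56.5 CPM, and knockdown replicates 2, 3, 4 and 5 had 40.8, 34.2, 42.8 and 39.6 CPM. The groups lay close but did not overlap, with control replicate 3 the lowest control. Kcnj3 was 1.40-fold lower (log2 fold change -0.49 ± 0.13, SE; adjusted p = 0.0222), but did not pass the threshold when control replicate 4 (adjusted p = 0.0669), 5 (0.0509) or 6 (0.0669) was left out. A noncoding gene of GENCODE M21 on the opposite strand, Gm26794, shares 1526 of the 5215 stretches of 50 bases in Kcnj3 (29.3%). It is not a gene of the count table, so that reads from it could have been counted as Kcnj3. How many were was not tested.

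Kcnj5 (ENSMUSG00000032034.7, chromosome 9, 32226003 to 32255646) encodes GIRK4. Its values were 10.4, 8.23, 5.89 and 7.66 CPM in control replicates 3, 4, 5 and 6 and 4.74, 4.38, 4.32 and 5.07 CPM in knockdown replicates 2, 3, 4 and 5. All knockdown libraries lay below the lowest control, and they spread less than the controls did. Kcnj5 was 1.74-fold lower (log2 fold change -0.80 ± 0.21, SE; adjusted p = 0.0181), and the call held with each library left out in turn (adjusted p 0.0155 to 0.0465). Kcnj5 was the only GIRK subunit whose call held in this way.

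Kcnj6 (ENSMUSG00000043301.17, chromosome 16, 94549495 to 94798560) encodes GIRK2. Control replicates 3, 4, 5 and 6 had 2.40, 5.07, 5.21 and 5.96 CPM, and knockdown replicates 2, 3, 4 and 5 had 5.48, 2.84, 7.12 and 6.21 CPM. The libraries numbered 3 were the lowest of their groups, and the groups overlapped. The log2 fold change was 0.22 ± 0.34 (SE; 95% confidence interval -0.55 to 0.98; adjusted p = 0.677), and -0.001 without control replicate 3 (adjusted p = 0.998).

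Kcnj9 (ENSMUSG00000038026.13, chromosome 1, 172148068 to 172156885) encodes GIRK3, a subunit known to send channels to endosomes for breakdown. It had 100.5, 115.4, 99.3 and 124.6 CPM in control replicates 3, 4, 5 and 6 and 77.0, 81.3, 104.5 and 106.4 CPM in knockdown replicates 2, 3, 4 and 5. Knockdown replicates 2 and 3 were below all controls and replicates 4 and 5 among them. The log2 fold change was -0.25 ± 0.15 (SE; 95% confidence interval -0.58 to 0.07; adjusted p = 0.224). Kcnj9 thus shows no call in either direction, and the interval allows a fall of up to 0.58 on the log2 scale. Of its exon bases, 172 of 4288 overlap Gm36937 on the other strand.

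Gnao1 (ENSMUSG00000031748.17, chromosome 8, 94536594 to 94696016) encodes Go alpha, the most abundant G protein of neurons and a main partner of the D2 receptor. It had 333.5, 540.9, 512.2 and 541.8 CPM in control replicates 3, 4, 5 and 6 and 368.4, 252.3, 381.3 and 414.0 CPM in knockdown replicates 2, 3, 4 and 5. Control replicate 3 fell among the knockdown libraries, and the other 3 controls lay above all of them. With all libraries Gnao1 was not called (log2 fold change -0.45 ± 0.20, SE; 95% confidence interval -0.89 to 0.001; adjusted p = 0.125). Without control replicate 3 it was called lower (1.51-fold, adjusted p = 0.0204), and likewise without both libraries numbered 3 (1.37-fold, adjusted p = 0.000871) and by limma-voom with sample quality weights (1.39-fold, adjusted p = 0.000814).

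Gnai1 (ENSMUSG00000057614.7, chromosome 5, 18470133 to 18565353) encodes Gi1 alpha, an inhibitor of adenylyl cyclase abundant in brain. Control replicates 3, 4, 5 and 6 had 113.6, 158.1, 134.1 and 144.4 CPM, and knockdown replicates 2, 3, 4 and 5 had 115.8, 125.7, 123.0 and 106.1 CPM. As for Gnao1, control replicate 3 was the lowest control and the only one among the knockdown values. Gnai1 was not called (log2 fold change -0.23 ± 0.13, SE; 95% confidence interval -0.52 to 0.06; adjusted p = 0.223). It was called lower without both libraries numbered 3 (adjusted p = 0.00769) and by limma-voom (adjusted p = 0.0106).

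Gnai2 (ENSMUSG00000032562.14, chromosome 9, 107491324 to 107512566) encodes Gi2 alpha, found in neurons and also in glia and immune cells. It had 298.1, 311.6, 333.9 and 348.7 CPM in control replicates 3, 4, 5 and 6 and 399.0, 421.4, 427.1 and 453.3 CPM in knockdown replicates 2, 3, 4 and 5. Every knockdown library lay above every control. Gnai2 was 1.32-fold higher (log2 fold change 0.40 ± 0.11, SE; adjusted p = 0.0270). It did not pass the threshold when control replicate 4 (adjusted p = 0.114), 5 (0.0693) or 6 (0.0597) was left out, nor without knockdown replicate 4 (0.0872) or 5 (0.0931) or with no filter on low counts (0.136).

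Gnai3 (ENSMUSG00000000001.5, chromosome 3, 108014596 to 108053462) encodes Gi3 alpha, which is expressed in most tissues. It had 25.2, 29.1, 30.0 and 29.9 CPM in control replicates 3, 4, 5 and 6 and 44.4, 48.7, 55.6 and 41.6 CPM in knockdown replicates 2, 3, 4 and 5. The controls were tightly grouped, and all knockdown libraries lay well above them. Gnai3 was 1.67-fold higher (log2 fold change 0.74 ± 0.13, SE; adjusted p = 0.00330), and the call held with each library left out in turn (adjusted p 0.00290 to 0.0159). Its adjusted p was the lowest of the 9 genes.

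Markers of some other cells moved beside Gnai2 and Gnai3, and their counts are read against the 13.4% of all genes called higher and 15.1% called lower. All 11 microglia markers tested summed to 32.1 to 56.4 CPM in controls and 66.6 to 199.4 CPM in knockdown, and 9 of them were called higher. The 10 astrocyte markers summed to 728.7 CPM in control replicate 3, 2482 to 4066 CPM in the other controls and 8187 to 12380 CPM in knockdown, with 3 called higher. For the 10 oligodendrocyte markers the sums were 1124 to 1745 and 1800 to 4384 CPM, with 5 called higher. Of 4 markers of oligodendrocyte precursors, 8 of endothelial cells and 8 of pericytes, 0 were called with all libraries. Control replicate 3 alone held high endothelial and pericyte sums, 783.1 and 608.5 CPM. In the other controls these sums were 9.44 to 16.3 and 10.5 to 16.6 CPM, below the 23.6 to 37.6 and 26.4 to 40.1 CPM of knockdown. The part of these cells in the values of Gnai2 and Gnai3 was not tested. Neuronal markers moved beside Drd2, Kcnj3 and Kcnj5: 10 of 12 dopamine neuron markers were called lower and 1 (Aldh1a1) higher. On the other neuron lists, 5 of 6 GABA, 4 of 5 glutamate and 3 of 3 serotonin genes were called lower. The 4 on the glutamate list were Slc17a6, Slc17a8, Nefm and Rbfox3, and Nefm and Rbfox3 are not particular to glutamate neurons. The part of neurons in the levels of the receptor and the channels was not tested either.

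How far the autoreceptor kept pace with the dopamine transmitter genes was measured within each library, as the log2 CPM of each gene minus the mean log2 CPM of Th, Ddc, Slc6a3 and Slc18a2. These 4 genes were lower in knockdown by 3.30-fold (Th, adjusted p = 0.00351), 5.01-fold (Ddc), 4.72-fold (Slc6a3) and 3.98-fold (Slc18a2), all without overlap. The folds without control replicate 3 were 2.47, 4.12, 3.97 and 3.61 in the same order. For Drd2 the difference to their mean was -1.43, -1.48, -1.70 and -1.59 in control replicates 3, 4, 5 and 6, so control replicate 3, which stood out in Drd2 itself, did not stand out here. In knockdown replicates 2, 3, 4 and 5 it was -0.43, -1.05, -0.47 and -0.60, above every control. Relative to the transmitter genes Drd2 was thus higher in knockdown by 0.91 on the log2 scale, and by 1.14 when set against Slc6a3 alone. The mean of the transmitter genes was itself lower in knockdown by 2.05 on this scale, so a gene at equal log2 CPM in both groups shifts by 2.05, and the order of the shifts restates that of the fold changes. Drd2 with 0.91, Kcnj5 with 1.28, Kcnj3 with 1.57, Gnao1 with 1.61, Kcnj9 with 1.79 and Gnai1 with 1.83 lay below this value, and Kcnj6 with 2.27, Gnai2 with 2.45 and Gnai3 with 2.78 above it. That none of the 6 genes below it had a difference as large as the mean of the transmitter genes also follows from the fold changes. As for Drd2, every knockdown library lay above every control on this measure for each of the other genes. Since the fall of the reference raises any gene at equal levels, this separation is not a result about these genes. The share of all genes that separate in this way was not counted. These differences are descriptions with no test.

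**Figure D4:**
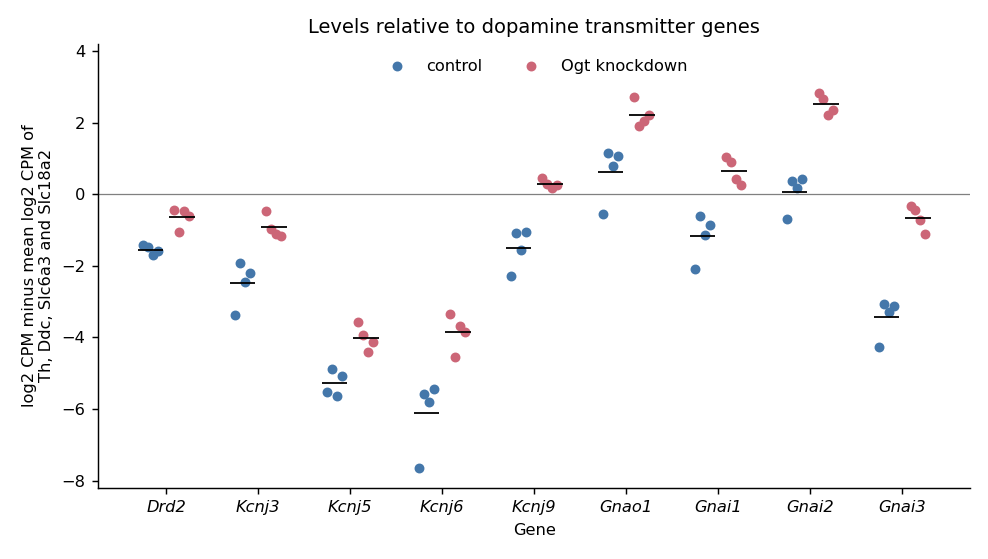
Points give, for single libraries, the log2 CPM of each gene minus the mean log2 CPM of Th, Ddc, Slc6a3 and Slc18a2 (y axis), with the group means as lines (n = 4 libraries per group). A gene at equal levels in both groups would shift up by 2.05, since the reference genes are lower in knockdown; Drd2, with group means of -1.55 and -0.64, shifts by less.

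The genes that share most of their pattern with Drd2 were sought by the Pearson correlation of log2 CPM over the 8 libraries, among 13309 other genes with a mean log2 CPM above 0. The 5 highest were Rusc2 (r = 0.993), Pax5 (0.992), Castor2 (0.991), Hectd3 (0.990) and Gba2 (0.989). Without control replicate 3 their values were 0.989, 0.983, 0.981, 0.980 and 0.985 over 7 libraries. For Slc6a3, Th, Ddc and Slc18a2 the same measure was 0.951, 0.939, 0.892 and 0.886, and 0.958, 0.876, 0.840 and 0.869 without control replicate 3. All points share the 2 groups and the depth of each library, and these values were used only to choose and describe genes.

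The rest of the G protein machinery was described by lists, whose counts are read against the 13.4% higher and 15.1% lower of all genes. Over the 12 lists, 105 genes besides the 9 were tested; 15 were called higher and 25 lower. With 1 library left out, 8 to 23 were higher and 19 to 30 lower, most in both directions without control replicate 3. Without that library, 2 of the other Gi/o alpha subunits were called higher and 2 of the Gs, Gq and G12 list lower. On the gamma list 4 were then higher and 4 lower, and on the RGS list 4 were higher. Of 3 other Gi/o alpha subunits tested, the transducin Gnat2 was called higher (0.25 ± 0.18 to 1.28 ± 0.14 CPM, adjusted p = 0.0476), a call that was lost without any 1 library other than control replicate 3 (adjusted p up to 0.110). Gnaz, the Gz subunit of neurons, was at 108.8 and 93.4 CPM and was not called. Of 8 Gs, Gq and G12 alpha subunits, 2 were higher and 1 lower. Gna12 was 2.21-fold higher (adjusted p = 0.00117) and Gnas, the Gs subunit that stimulates adenylyl cyclase, 1.67-fold lower (adjusted p = 0.00574). Gna13 was 2.28-fold higher (adjusted p = 0.0448), with a control replicate 3 of 18.9 CPM against 72.3 to 86.0 CPM in the other controls, and lost its call without any 1 library other than that (adjusted p up to 0.105). The list's median log2 fold change was 0.43.

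Among beta and gamma subunits, the pair that opens GIRK channels, calls went both ways. Of 5 beta subunits 3 were lower: Gnb3 by 5.19-fold at 1.27 ± 0.29 against 0.24 ± 0.14 CPM (adjusted p = 0.00631), Gnb5, the partner of RGS proteins rather than of a gamma subunit, by 1.55-fold (adjusted p = 0.00817), and Gnb4 by 1.40-fold (adjusted p = 0.0376). Gnb4 was not called without control replicate 5 (adjusted p = 0.0838) or 6 (0.0727), nor without knockdown replicate 2 (0.0852) or 3 (0.0570). Gnb1 was at 584.0 ± 118.0 and 795.7 ± 22.9 CPM, without overlap and short of the threshold (adjusted p = 0.0651; without control replicate 3, which was at 408.7 CPM, 1.24-fold higher and adjusted p = 0.0596). Of 11 gamma subunits 3 were higher and 3 lower. The neuronal Gng3 went from 789.5 ± 153.4 to 382.4 ± 98.2 CPM (2.07-fold lower, adjusted p = 0.00517) and Gng13 from 11.9 ± 0.52 to 4.11 ± 1.14 CPM (2.89-fold lower, adjusted p = 0.000960). Gng5 rose 3.11-fold (adjusted p = 0.000851), Gng11 2.60-fold (adjusted p = 0.00402) and Gng12 2.03-fold (adjusted p = 0.00851). Gng2 was 1.74-fold lower with overlapping groups (adjusted p = 0.0320), and this call was lost without any 1 library other than control replicate 3 and knockdown replicate 5 (adjusted p up to 0.0843). The medians were -0.49 for the beta and 0.24 for the gamma list.

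Among the RGS proteins, which end the signal by speeding GTP hydrolysis in alpha subunits, and their anchors, 5 of 18 were lower and 3 higher, with a median log2 fold change of -0.33. Rgs8, which speeds the gating of GIRK channels, went from 227.5 ± 18.6 to 110.9 ± 24.6 CPM (2.05-fold lower, adjusted p = 0.00219) and Rgs2 from 71.9 ± 9.47 to 36.4 ± 7.38 CPM (1.98-fold lower, adjusted p = 0.00244). Rgs20, which acts on Gz and Gi subunits, was 1.74-fold higher (adjusted p = 0.00335), and Rgs9bp, an anchor of Rgs9, was 6.70-fold higher from a low level (0.42 ± 0.27 to 2.73 ± 0.83 CPM, adjusted p = 0.00306). The other 4 calls were Rgs11 (6.45-fold lower, and 3.43-fold without control replicate 3), Rgs7bp (1.72-fold lower), Rgs17 (1.51-fold lower) and Rgs12 (1.52-fold higher). The calls of Rgs17 and Rgs12 were lost without single libraries: for Rgs17 control replicates 4, 5 and 6 and knockdown replicates 4 and 5 (adjusted p up to 0.0674), and for Rgs12 the same 5 libraries and knockdown replicate 2 (adjusted p up to 0.0961). Of 7 receptor kinases and arrestins, Grk6, a kinase known to act on D2 receptors, was 3.06-fold lower (87.4 ± 5.49 to 28.6 ± 8.44 CPM, adjusted p = 0.000847), while Grk4 was 2.34-fold higher (adjusted p = 0.00988). Grk5 was 1.48-fold higher (adjusted p = 0.0272) and lost its call without any 1 library other than the 2 numbered 3 (adjusted p up to 0.0885). The 2 arrestins were not called.

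On the effector side, 1 of 9 adenylyl cyclases was called lower with all libraries and none higher. Adcy5, the main cyclase of the striatum, went from 162.8 ± 13.1 to 97.6 ± 15.5 CPM (1.67-fold lower, adjusted p = 0.00430). Adcy3 went from 32.9 ± 3.24 to 12.3 ± 6.89 CPM, 2.68-fold lower without overlap but short of the threshold (adjusted p = 0.0629). Knockdown replicate 3 was at 2.03 CPM, the other knockdown libraries at 14.3 to 16.5 CPM. Without that library Adcy3 was called lower (adjusted p = 0.000862), but not with any other 1 library left out (adjusted p up to 0.118). It was also called lower without both libraries numbered 3, by DESeq2 and by limma-voom. The list's median was -0.66. Without control replicate 3, in which Adcy4 was at 28.7 CPM against 0.29 to 0.40 CPM in the other controls, it was called higher (3.28-fold, adjusted p = 0.00523). Of 7 partners of D2 receptors and GIRK channels, Ncs1, a calcium sensor that limits D2 receptor desensitisation, was 1.54-fold lower (554.8 ± 69.3 to 360.5 ± 29.5 CPM, adjusted p = 0.00770), and Cadps2 was 1.69-fold lower (adjusted p = 0.00831). Kctd12b was 1.58-fold higher with overlap (adjusted p = 0.0460), a call lost without any 1 library other than the 2 numbered 3 (adjusted p up to 0.150). Of 9 chaperones and exchange factors of alpha subunits only Gprin1, a partner of Go in neurite growth, was called with all libraries (1.55-fold lower, adjusted p = 0.0191), and not without control replicate 6 (adjusted p = 0.0618). Without control replicate 3, 2 of the 9 were called lower.

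Other receptors that reach GIRK channels through Gi/o proteins were lower for 5 of 15 and higher for 1, with a median of -0.43. The nociceptin receptor Oprl1 went from 104.4 ± 7.48 to 46.6 ± 9.04 CPM (2.24-fold lower, adjusted p = 0.000766) and the cannabinoid receptor Cnr1 from 56.5 ± 6.47 to 29.3 ± 3.49 CPM (1.93-fold lower, adjusted p = 0.00121). The kappa opioid receptor Oprk1 was 1.57-fold lower (adjusted p = 0.0137), and the alpha-2A adrenoceptor Adra2a 1.52-fold higher (adjusted p = 0.0120, but 0.0509 without knockdown replicate 4). The muscarinic receptor Chrm2 (1.75-fold lower, adjusted p = 0.0213) lost its call without control replicate 4 (0.0512), 5 (0.0603) or 6 (0.0543), and the delta opioid receptor Oprd1 (2.17-fold lower, adjusted p = 0.0283) lost its call without any 1 of these or knockdown replicate 5 (adjusted p up to 0.0831). The GABA-B receptor subunits Gabbr1 and Gabbr2, which open the same channels in dopamine neurons, were not called (log2 fold changes 0.12 and -0.31). Among 9 other inward rectifiers, 2 were lower and 2 higher. Kcnj11, the pore of ATP-sensitive potassium channels, went from 49.0 ± 5.87 to 23.4 ± 2.86 CPM (2.10-fold lower, adjusted p = 0.000851) and Kcnj12 was 1.58-fold lower (adjusted p = 0.00757). Kcnj14 was 2.42-fold higher (adjusted p = 0.00534), and Kcnj4 was 2.12-fold higher (adjusted p = 0.0295), a call lost without any 1 library other than control replicates 3 and 6 (adjusted p up to 0.0714). Without control replicate 3, 5 of these 9 were called higher.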

How the data were processed

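The authors deposited raw counts, in a single table with a column for each of the 8 libraries. The exons of GENCODE vM30 were counted with featureCounts 2.0.3, per the file headers. Its command line asks neither for strand, nor for pairs, nor for multi-mapping reads: mates were counted singly on either strand, and multi-mapping reads were dropped. The submitters' processing notes list FastQC, Trimmomatic, STAR and mm10 and give no versions. GENCODE vM30 describes GRCm39, and this conflict was not settled. The spans of 7 of the 9 genes do not overlap between GRCm39 and GRCm38, and all 9 had reads. Symbols came from GENCODE M21 by gene ID (52073 of 56691 IDs matched). Coordinates of genes are those of the table.

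Genes were filtered with filterByExpr and TMM-scaled. The test was edgeR 4.0.16's two-sided quasi-likelihood test (robust glmQLFit, then glmQLFTest; R 4.3.3) on all 8 libraries, no covariate, and Benjamini-Hochberg adjustment over 19912 genes at 0.05. Groups follow the genotype in the labels. CPM values are TMM-scaled, log2 CPM used a prior count of 2, and TPM was computed from counts and the table's exon lengths. A count of 3 reads corresponded to 0.0203 to 0.0602 CPM, for counting error only. No libraries of a group agreed within sampling noise. The test was tried on simulated data.

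The 9 genes, the 12 pathway lists, the 10 marker lists and the alternatives were chosen with earlier results of these data known, so they support nothing beyond the values given. Named genes are the 9 genes, Ogt, Th, Ddc, Slc6a3 and Slc18a2, up to 4 genes with the smallest p of each list plus exceptions to a count, and the 5 genes most correlated with Drd2. Others, among them Aldh1a1, Gnaz, Gnb1, Gabbr1, Gabbr2, Adcy3, Adcy4, Kcnj8 and Rgs5, were chosen after their values were seen. List members with too few reads to test were Gnat3, Gngt1, Kcnj1 and Kcnj13. Other settings tried were 2 scalings (RLE, upper quartile), 2 filters (none, or a CPM of 1 reached by 4 libraries), 2 other tools (DESeq2 1.42.0 and voom with quality weights in limma 3.58.1), a replicate block, and fits without each library in turn or without both numbered 3. Promoter windows came from RefSeq.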

Additional observations from a re-analysis of the deposited data

Results flagged for a closer look

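In 18 groups of 4 libraries (the 9 genes in each group), the highest or lowest library was compared with the rest, and 2 stood apart: the gap to the nearest library, over the range of the group, was above Dixon's 95% critical value for 4 values. Drd2 in control replicate 3 was at 180.3 CPM, above the other controls (ratio 0.957). Gnao1 in control replicate 3 was at 333.5 CPM, below the other controls (ratio 0.858). Chance flags about 1 in 20 groups, and both values come from the same library, the one with the high endothelial and pericyte marker sums.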

How the results depend on the processing

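Over all genes, 5668 were called, 10208 by limma-voom with quality weights, 9565 without both libraries numbered 3 and between 3876 and 7198 with 1 library left out. Of the 9 genes 5 were called, and 3 to 6 with 1 library left out. RLE scaling, upper quartile scaling, the strict filter and DESeq2 each called 3 of the 9 lower and 2 higher (28.3%, 28.2%, 37.2% and 34.5% of all genes called), no filter on low counts 3 lower and 1 higher (14.6%), and limma-voom 5 lower and 2 higher (51.3%). No scaling moved the median of all genes by more than 0.09 (log2). Replicate numbers 3, 4 and 5 occur in both groups. Same-numbered libraries deviated together with correlations of 0.104, 0.099 and 0.042. The highest correlation of the same controls with a knockdown library of another number was 0.016, 0.039 and 0.044. All these values are small, and for numbers 3 and 4 the same-numbered one was the higher. They do not settle whether the numbers pair the samples. With the replicate number as a block, 1258 genes (6.32%) and 0 of the 9 genes were called.

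Signs turned in 4 of the genes named, none of them called by edgeR with all libraries. With 1 library left out, the log2 fold change ran from -0.001 to 0.43 for Kcnj6 (main value 0.22), -3.13 to 1.71 for Adcy4 (-2.72), -1.90 to 1.95 for Kcnj8 (-1.47) and -3.22 to 1.11 for Rgs5 (-2.81); in each case the turned sign came without control replicate 3, and there Adcy4 (adjusted p = 0.00523), Kcnj8 (0.0382) and Rgs5 (0.00281) were called higher. Without both libraries numbered 3 it was 1.81 for Adcy4 (adjusted p = 0.00162), 1.51 for Kcnj8 (0.0607) and 1.07 for Rgs5 (0.000944), by limma-voom 1.69 (adjusted p = 0.00278), 1.33 (0.0548) and 0.89 (0.139), and with the replicate block 0.30 for Adcy4 and 0.73 for Kcnj8. Of 55 further list genes, a set that includes Adcy3, Kctd8, Htr1a and Grm3, 16 turned sign under some setting, and 0 of these 16 were called in either fit. The cause was not tested. The lowest value of the 9 genes, 2.40 CPM for Kcnj6 in control replicate 3, was above the floor of 3 counts.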
